A study of Mus musculus with 6 samples.

Results

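The genes described here are 10 factors that start RNA polymerase II transcription or release the polymerase into productive elongation. They were chosen by gene symbol for these roles, and the rule used no measured value, though earlier results of these data were known. All 10 were found by their Ensembl identifiers among the 29139 genes of the count table, and all 10 were among the 11864 genes that passed the filter on low counts. RNA had been collected from 2-cell stage mouse embryos of the ICR strain, an outbred stock, grown in KSOM, a culture medium for preimplantation embryos. One group was treated with 75 µM MS-444, a small molecule reported to inhibit the RNA-binding protein HuR, and the control group with 0.1% DMSO, the solvent. No DMSO percentage is given for the MS-444 libraries. Each group had 3 libraries, each from 16 embryos. The labels give no length of treatment, and they do not say whether the replicates were separate cultures, so p-values reflect the spread among these libraries alone, and that spread may be technical.

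Transcription by RNA polymerase II begins when TBP and TFIIB place the polymerase at a promoter. After a short stretch the polymerase pauses, held by DSIF and NELF, until the kinase P-TEFb (CDK9 with cyclin T1 or T2) phosphorylates the pausing factors and the polymerase. P-TEFb is kept inactive by HEXIM1 on the 7SK RNA and is brought to genes by the super elongation complex built on AFF4. SPT6 and FACT (SPT16 with SSRP1) are histone chaperones that help the polymerase through nucleosomes. The mouse embryo switches on its own genome in a major wave at the 2-cell stage, while it breaks down RNA stored by the oocyte.

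Of the 10 genes, 3 rose and 3 fell in MS-444, and 4 did not pass the test. The P-TEFb genes Cdk9 and Ccnt1 and the scaffold gene Aff4 rose 2.01-fold to 2.78-fold. The initiation factor genes Tbp and Gtf2b and the FACT gene Supt16 fell 1.86-fold to 2.38-fold. Ccnt2, Hexim1, Supt5 and Supt6 did not pass. The test was two-sided (edgeR, quasi-likelihood), its p was adjusted over all genes tested by the Benjamini-Hochberg method, and a gene passed below an adjusted p of 0.05. Over all genes tested, 25.5% passed it, 14.4% higher and 11.1% lower. The DMSO and MS-444 libraries did not overlap for 8 of the 10 genes, 4 higher and 4 lower in MS-444, where 43.9% of all genes tested did not overlap, 23.0% higher and 20.9% lower. DESeq2 called 7 of the 10 genes, adding Ccnt2, and 22.6% of the genes it tested. The median log2 fold change was 0.21 over the 10 genes and 0.02 over all genes tested, and the median of its absolute value was 0.95 and 0.67. Levels are given in CPM, the count of a gene relative to its library's total after TMM scaling. Leaving out MS-444 replicate 3 reduced the 6 calls to 2, and leaving out either DMSO replicate 3 or MS-444 replicate 2 reduced them to 3. Leaving out DMSO replicate 1 raised them to 7. Calls over all genes tested, 3028 with every library, moved in the same direction in each of these fits. They numbered 1171, 1774, 1211 and 3820, in the order in which the omitted libraries are named here. The drop in calls was thus not particular to the 10 genes.

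**Figure D1:**
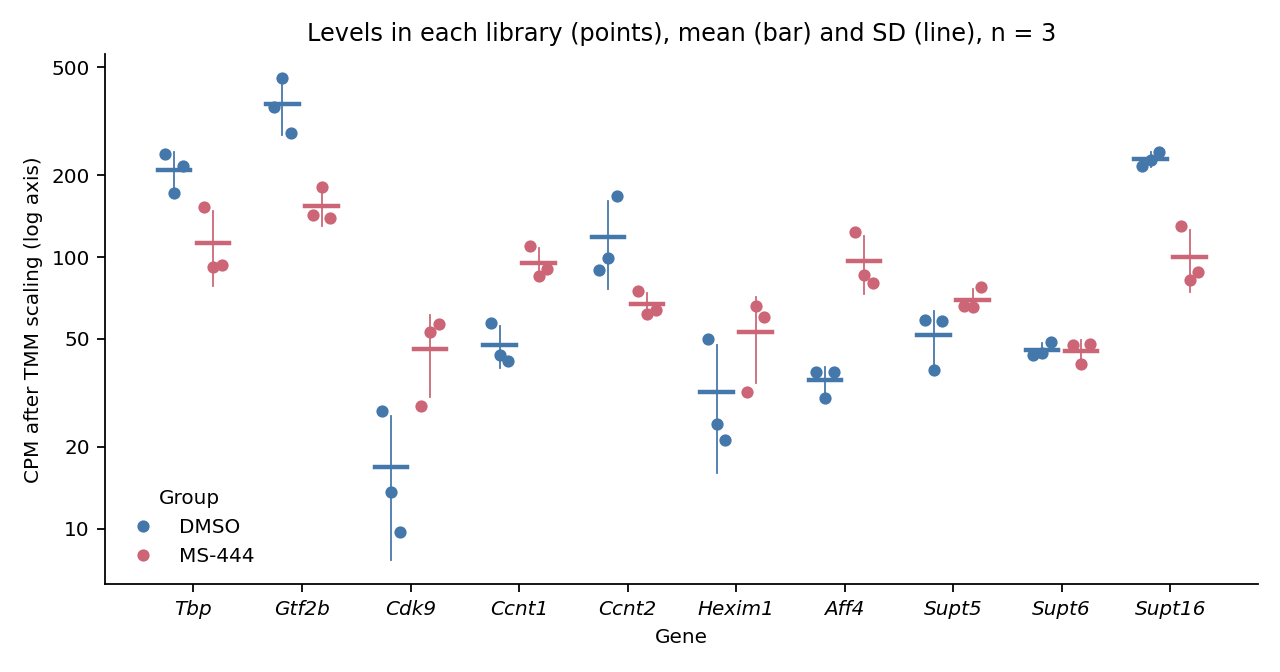
Level of each of the 10 genes in CPM after TMM scaling, on a log axis. Each point is 1 library (3 DMSO, 3 MS-444), bars are group means and lines are ± SD; Gtf2b, Tbp and Supt16 lie lower in all 3 MS-444 libraries than in any DMSO library, while Aff4, Ccnt1 and Cdk9 lie higher.

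Library totals ranged from 2637763 to 4695866 counts, and the 10 genes had between 38 and 1982 counts in a library. The 10 genes together took 0.105% to 0.11% of the counts in DMSO and 0.0845% to 0.0939% in MS-444. Markers of the 2-cell embryo were present in every library, with 7 of 8 markers in the table and a summed level of 1428.6 to 2080.8 CPM in DMSO and 1568.7 to 1899.8 CPM in MS-444. The 10 markers of the oocyte store summed to 5022.0 to 7188.2 CPM in DMSO and 3727.1 to 4584.8 CPM in MS-444. The fall in that sum came mostly from Bmp15 (3110.7, 3191.8 and 5159.2 CPM in the DMSO libraries, 1788.1, 1476.3 and 1619.9 CPM in the MS-444 libraries). Nlrp5, Padi6, Tle6, Zp2 and Gdf9 were also lower in every MS-444 library than in any DMSO library. Zar1 and Ooep were lower in the mean. Zp3 lay the other way, higher in all 3 MS-444 libraries, as did Oosp1 in the mean. The 10 cumulus cell markers summed to 12 to 12.8 CPM in DMSO and 24.2 to 29.9 CPM in MS-444, with 6 of the 10 at 0 in at least 1 library, among them Ptx3, Fshr and Inhba. The rise in that sum came mostly from Amhr2 (2.8, 1.84 and 3.32 CPM in the DMSO libraries, 14.3, 18.2 and 17.7 CPM in the MS-444 libraries), while Cyp19a1 was lower in all 3 MS-444 libraries. The blood markers, 2 of 3 in the table, summed to 2.04 to 7.37 CPM in DMSO and 9.52 to 24.5 CPM in MS-444, nearly all from Hba-a1. The part of these shifts in the results below was not tested. In these bulk libraries, fewer cells of a type and less RNA per cell cannot be told apart. Scaled by library totals instead of TMM, the median log2 fold change of all genes moved from 0.02 to 0.2, and 2179 genes were called higher and 881 lower where TMM gave 1706 and 1322. Elavl1, the gene of HuR, had a mean of 73.3 ± 22.3 CPM in the DMSO group, against 51.4 ± 6.58 CPM with MS-444 (SD, n = 3 each), and did not pass (log2 fold change -0.51, SE 0.29, edgeR adjusted p = 0.21).

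HuR binds AU-rich and U-rich stretches of mRNA, mostly in 3′ UTRs, so these motifs were counted in the 3′ UTRs of the 10 genes (GENCODE transcripts, GRCm38). The pentamer ATTTA was found in 7 of the 10 genes and in 71.2% of the 9797 tested genes with a 3′ UTR of at least 100 bases. The motif TTTNTTT, counted with overlapping matches, was found in 9 of the 10 and in 70.8% of those genes. Both motifs were counted with overlapping matches, on the transcript strand only. One 30-base window is shown for each of the 6 genes that passed the test, since the motifs differ between them. It is centred on the ATTTA match, or where there is none the TTTNTTT match, in the most T-rich window, and capitals mark that match.
Tbp: gcactgcccatttATTTAtatttagatttt
Gtf2b: actagtgcaacatATTTAatgacttaaatt
Ccnt1: tttctcaatctgtATTTAtccatcccatca
Aff4: atttatttttactATTTAtgtattggttct
Cdk9: ggagaattttatTTTGTTTtgttaagttta
Supt16: tgttttttttttTTTTTTTttttttttttt
Among the genes that fell, Tbp held 4 ATTTA matches in 644 bases and Gtf2b 2 in 277 bases. Among those that rose, Ccnt1 held 5 in 4522 bases and Aff4 21 in 6315 bases. The density of ATTTA was 6.21 per kb in Tbp, 7.22 in Gtf2b, 1.11 in Ccnt1 and 3.33 in Aff4. Its median over the 9797 tested genes was 1.51 per kb. Neither Cdk9, which rose, nor Supt16, which fell, held ATTTA, so the pentamer was on both sides and missing on both sides. Supt16 held 35 overlapping TTTNTTT matches, 27.7 per kb, a density at percentile 99.0 of those genes, whose median was 2.13 per kb. The window shown for Supt16 is almost all T, and in such a run each further base starts another overlapping match. The count is therefore not one of separate sites. Of the genes that did not pass, Ccnt2 held 14 ATTTA matches, Hexim1 3, Supt6 1 and Supt5 none of either motif. A match describes the letters of the reference and is not evidence of binding.

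The initiation factor genes fell in MS-444. Gtf2b encodes TFIIB, which bridges TBP and the polymerase. Its level was 357.4, 456.3 and 286.0 CPM in DMSO replicates 1 to 3 and 142.5, 181.3 and 139.0 CPM in MS-444 replicates 1 to 3. Every MS-444 library lay below every DMSO library. The mean fell from 366.6 ± 85.5 to 154.3 ± 23.5 CPM (SD, n = 3), a 2.38-fold decrease (log2 fold change -1.25, SE 0.26, 95% interval -1.82 to -0.68, edgeR adjusted p = 0.0091). The call was kept under all 17 alternative settings, between -1.44 and -1.06.

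Tbp encodes the TATA-binding protein, the DNA-binding core of TFIID. Its level was 239.1, 171.7 and 217.6 CPM in DMSO and 153.1, 92.0 and 93.7 CPM in MS-444. The groups did not overlap, and MS-444 replicate 1 stood nearest to the DMSO libraries. The mean fell from 209.5 ± 34.4 to 112.9 ± 34.8 CPM, 1.86-fold (log2 fold change -0.89, SE 0.28, 95% interval -1.51 to -0.27, edgeR adjusted p = 0.041). This call was near the threshold. It was lost with library totals (-0.71, edgeR adjusted p = 0.081), with a filter of 1 CPM (-0.88, edgeR adjusted p = 0.052), and when any 1 of DMSO replicates 1 (-0.85) and 3 (-0.91) and of MS-444 replicates 2 (-0.82) and 3 (-0.79) was left out. Tbp also shares 2582 exon bases with Pdcd2 on the other strand, and without strand information reads there cannot be told apart. Pdcd2 moved the opposite way, from 4.75 ± 2.83 to 28.1 ± 5.66 CPM (log2 fold change 2.61, SE 0.44, edgeR adjusted p = 0.005).

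The 3 genes of P-TEFb did not move together. Cdk9 encodes the kinase. Its level was 27.2, 13.6 and 9.7 CPM in DMSO and 28.2, 52.9 and 56.8 CPM in MS-444. The groups did not overlap, but the highest DMSO library and the lowest MS-444 library, both replicate 1, were almost level. The mean rose from 16.8 ± 9.18 to 46.0 ± 15.5 CPM, 2.78-fold (log2 fold change 1.47, SE 0.43, 95% interval 0.53 to 2.42, edgeR adjusted p = 0.03). The call was lost when any 1 of DMSO replicates 2 (1.29) and 3 (1.15) and of MS-444 replicates 2 (1.3) and 3 (1.28) was left out, with adjusted p from 0.084 to 0.11 in edgeR.

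Ccnt1 encodes cyclin T1, one of the alternative cyclin partners of CDK9. Its level was 57.2, 43.5 and 41.6 CPM in DMSO and 109.9, 85.4 and 90.3 CPM in MS-444. All 3 MS-444 libraries were above all 3 DMSO libraries. The mean rose from 47.4 ± 8.49 to 95.2 ± 13 CPM, 2.01-fold (log2 fold change 1.01, SE 0.26, 95% interval 0.43 to 1.59, edgeR adjusted p = 0.021). An antisense gene, 9330020H09Rik, shares 695 exon bases with Ccnt1 but held at most 11 counts in a library. The log2 fold change stayed between 0.84 and 1.1 when a library was left out. The call was kept only without DMSO replicate 1, and lost when any 1 of DMSO replicates 2 (0.89) and 3 (0.88) and of MS-444 replicates 1 (0.84), 2 (1.02) and 3 (1.03) was left out.

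Ccnt2, the gene of cyclin T2, lay on the other side. Its level was 89.9, 99.0 and 167.9 CPM in DMSO and 75.1, 61.8 and 64.1 CPM in MS-444. The groups did not overlap, and DMSO replicate 3 stood above the other two. The means were 118.9 ± 42.6 and 67.0 ± 7.1 CPM, and the difference did not pass (log2 fold change -0.83, SE 0.3, 95% interval -1.48 to -0.18, edgeR adjusted p = 0.062). It passed in DESeq2 (adjusted p = 0.039), after correcting for GC and length (adjusted p = 0.032, edgeR), with all genes of at least 1 count (adjusted p = 0.042, edgeR) and without DMSO replicate 1 (-1.06, adjusted p = 0.03, edgeR). Without DMSO replicate 3 it was -0.54.

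The ratio of Ccnt1 to Ccnt2 counts within a library, which does not depend on library scaling, was 0.636, 0.44 and 0.248 in DMSO and 1.46, 1.38 and 1.41 in MS-444. Ccnt2 thus had more counts in every DMSO library and Ccnt1 in every MS-444 library. The log2 ratio averaged -1.28 ± 0.68 (SD) in the DMSO libraries and 0.5 ± 0.04 in the MS-444 libraries (n = 3), a difference of 1.78, or 3.44-fold. A two-sided exact permutation test gave p = 0.1, the smallest that 3 against 3 libraries allow, and 0.3 after Benjamini-Hochberg adjustment over the 6 ratios computed. No ratio could pass a threshold of 0.05 in this design.

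**Figure D2:**
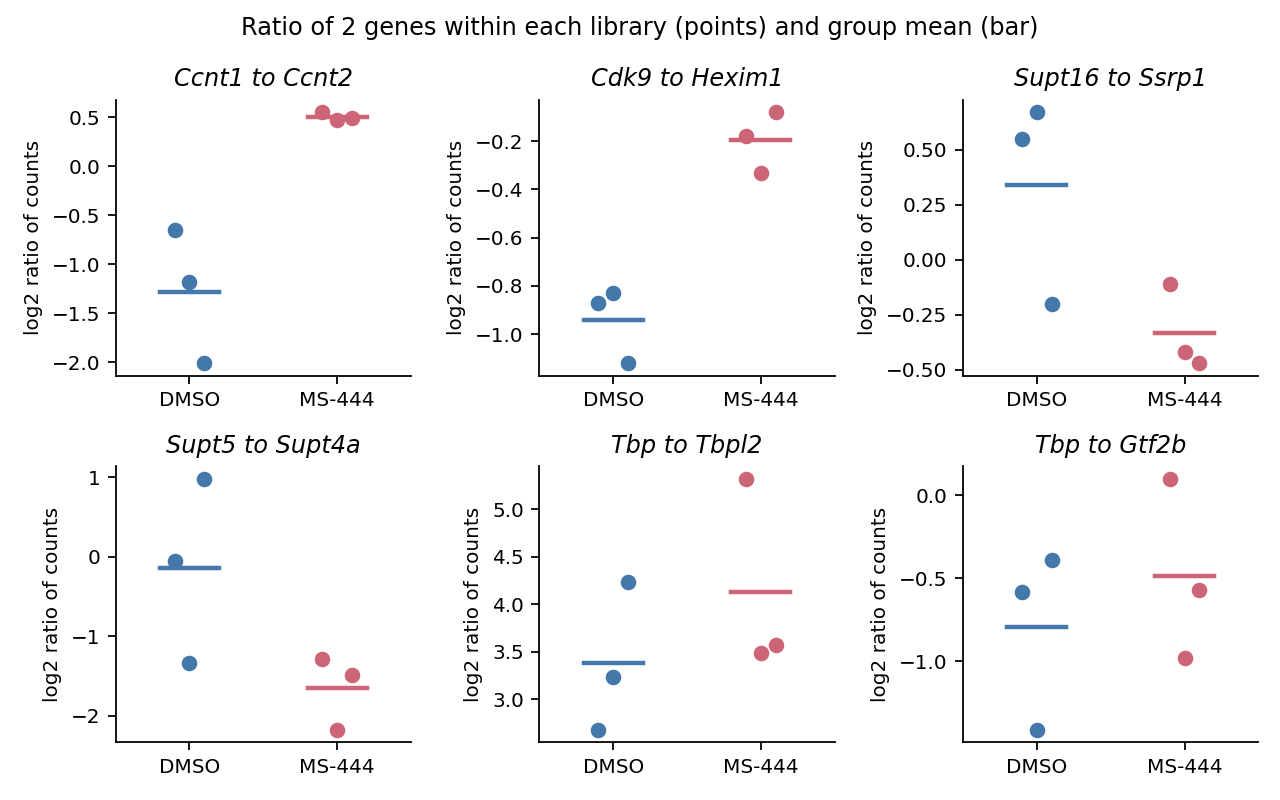
log2 ratio of the counts of a pair of genes within each library, for 6 pairs, in DMSO and MS-444. Points are libraries and bars are group means (n = 3); the groups lie apart for Ccnt1 to Ccnt2 and for Cdk9 to Hexim1 and overlap for the other 4 pairs.

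Hexim1 encodes the protein that, bound to 7SK RNA, inhibits P-TEFb. Its level was 50, 24.2 and 21.2 CPM in DMSO and 31.9, 66.3 and 60.2 CPM in MS-444. The groups overlapped, since DMSO replicate 1 lay above MS-444 replicate 1. The means were 31.8 ± 15.8 and 52.8 ± 18.4 CPM (log2 fold change 0.75, SE 0.4, 95% interval -0.13 to 1.63, edgeR adjusted p = 0.18). It passed only without DMSO replicate 1 (1.16, edgeR adjusted p = 0.041). Replicate 1 was the highest DMSO library and the lowest MS-444 library for Hexim1 and for Cdk9 alike. This was not particular to them, since Srsf1, Ppm1g and Med29, described below, had the same pattern. The ratio of Cdk9 to Hexim1 was 0.546, 0.564 and 0.461 in DMSO and 0.886, 0.798 and 0.944 in MS-444. The ratio did not overlap between groups and was lowest in DMSO replicate 3. The log2 ratio differed by 0.74, or 1.67-fold (exact permutation p = 0.1, adjusted 0.3).

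The promoters of Cdk9 and Hexim1 are shown as those of the P-TEFb kinase and its inhibitor. They are RefSeq sequences (GRCm38.p6) from 250 bases before to 50 bases after the annotated start, chr2:32712735-32713034 on the minus strand for Cdk9 and chr11:103116075-103116374 on the plus strand for Hexim1. Capitals mark matches to 3 motifs searched on both strands, so that ATTGG is CCAAT on the other strand. The motifs were CCAAT, the GC box GGGCGG and the TATA box, which was matched by TATAAAA or its variant TATAAAT, and further by the form TATATAA or its variant TATATAT, whose matches may overlap.
Cdk9: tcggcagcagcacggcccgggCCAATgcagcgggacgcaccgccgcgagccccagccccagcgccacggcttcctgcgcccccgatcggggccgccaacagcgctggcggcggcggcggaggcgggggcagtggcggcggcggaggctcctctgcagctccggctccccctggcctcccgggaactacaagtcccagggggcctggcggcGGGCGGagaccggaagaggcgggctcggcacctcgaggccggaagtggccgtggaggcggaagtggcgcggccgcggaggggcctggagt
Hexim1: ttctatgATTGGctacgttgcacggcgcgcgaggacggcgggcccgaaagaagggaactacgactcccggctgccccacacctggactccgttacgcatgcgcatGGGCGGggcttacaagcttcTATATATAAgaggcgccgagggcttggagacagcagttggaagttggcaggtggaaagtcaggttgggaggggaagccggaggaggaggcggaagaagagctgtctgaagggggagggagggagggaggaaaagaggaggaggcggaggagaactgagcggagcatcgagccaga
Both windows held 1 CCAAT and 1 GGGCGG match, which 37.4% and 35.7% of 32851 RefSeq promoters held at least once. Hexim1 was the only one of the 10 genes with a TATA-box match, held by 12.5% of all promoters. The last of its 3 overlapping matches began 29 bases before the GENCODE start of the gene, with the first base of that match at offset -123 from the RefSeq start that defines the window shown. GC content was 78.3% in the Cdk9 window and 61.0% in the Hexim1 window, against a median of 52.7% over all promoters.

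Aff4 encodes the scaffold of the super elongation complex, which carries P-TEFb to paused polymerase. Its level was 37.6, 30.4 and 37.8 CPM in DMSO and 123.5, 86.3 and 80.1 CPM in MS-444. The lowest MS-444 library was far above the highest DMSO library. The mean rose from 35.2 ± 4.21 to 96.6 ± 23.4 CPM, 2.74-fold (log2 fold change 1.45, SE 0.28, 95% interval 0.84 to 2.07, edgeR adjusted p = 0.0074). The call was kept under all 17 alternative settings, between 1.19 and 1.63.

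Of the elongation factor genes that act with the moving polymerase, Supt16 fell and Supt5 and Supt6 did not pass. Supt16 encodes the large subunit of FACT. Its level was 215.9, 228.6 and 244.4 CPM in DMSO and 130.0, 82.7 and 88.3 CPM in MS-444. The groups were well apart, with a coefficient of variation of 6.23% in DMSO and 25.8% in MS-444. The mean fell from 229.6 ± 14.3 to 100.4 ± 25.9 CPM, 2.29-fold (log2 fold change -1.2, SE 0.26, 95% interval -1.76 to -0.63, edgeR adjusted p = 0.011). Without MS-444 replicate 3 the value was -1.13 and missed the threshold (edgeR adjusted p = 0.053). Supt16 shares 1057 exon bases with Rpgrip1 on the other strand, which was at 18.3 ± 7.73 and 25.6 ± 3.89 CPM.

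Supt5 encodes the large subunit of DSIF. Its level was 58.8, 38.4 and 58.2 CPM in DMSO and 65.9, 65.4 and 77.4 CPM in MS-444. The groups did not overlap, but the gap was small. The means were 51.8 ± 11.6 and 69.6 ± 6.77 CPM (log2 fold change 0.43, SE 0.27, 95% interval -0.17 to 1.03, edgeR adjusted p = 0.26). It passed under none of the 17 alternative settings. The antisense gene Gm44709, which shares 433 exon bases with Supt5, held at most 4 counts in a library.

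Supt6 encodes SPT6. Its level was 43.6, 44.2 and 48.7 CPM in DMSO and 47.3, 40.3 and 48.0 CPM in MS-444. The libraries of both groups were interleaved. The means were 45.5 ± 2.82 and 45.2 ± 4.25 CPM (log2 fold change -0.01, SE 0.25, 95% interval -0.56 to 0.54, edgeR adjusted p = 0.98). The interval spans ratios of MS-444 to DMSO from 0.678 to 1.45, and the sign turned under 3 alternative settings. Supt6 shares 242 exon bases with Sdf2 on the other strand, which was at 22.4 ± 6.18 and 31.1 ± 6.04 CPM.

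**Figure D3:**
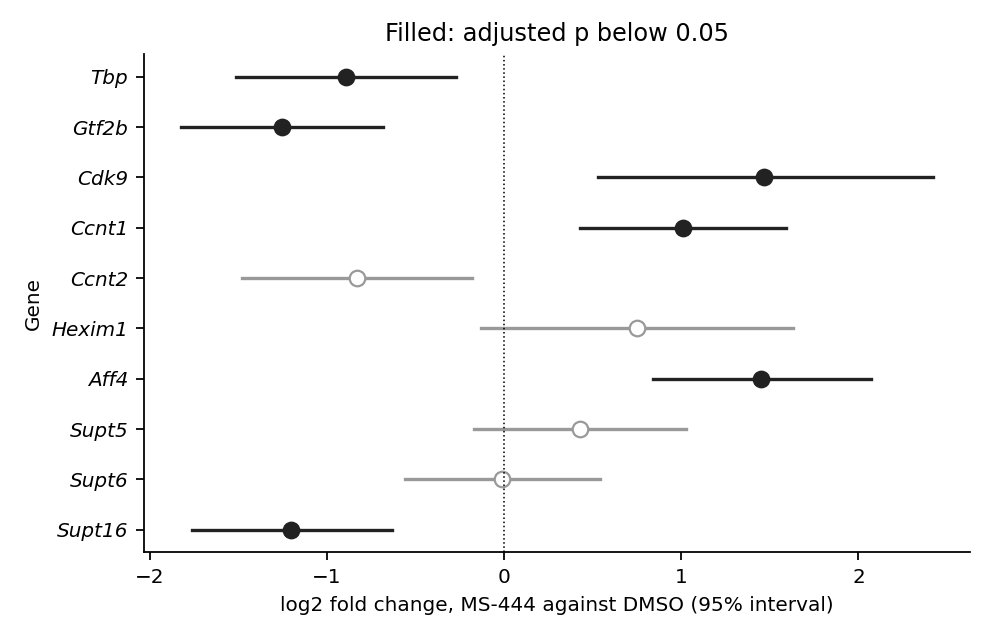
log2 fold change of MS-444 against DMSO for the 10 genes, with 95% intervals from edgeR (3 libraries a group). Filled points have an adjusted p below 0.05; Cdk9 has the widest interval, 0.53 to 2.42.

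**Figure D4:**
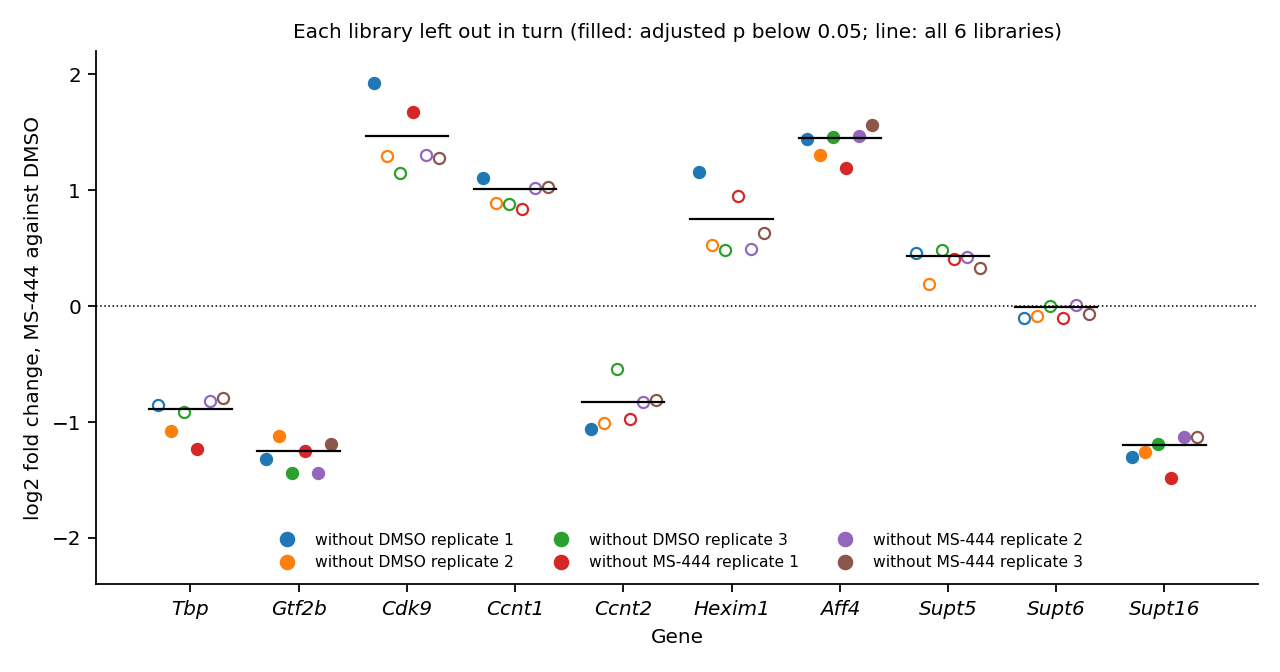
log2 fold change of each gene with each library left out in turn (coloured points; filled where the adjusted p is below 0.05) and with all 6 libraries (black line). Gtf2b and Aff4 stay filled in all 6, while Cdk9 and Ccnt1 stay filled in 2 and 1.

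The levels of the 10 genes were ordered per kilobase of the representative transcript. In DMSO, Gtf2b was highest at 251.9 ± 58.8 CPM per kb, then Tbp at 110.8 ± 18.2 and Supt16 at 49.1 ± 3.06, each above the next in every library. Below them Ccnt2, Supt5, Cdk9, Hexim1, Supt6 and Ccnt1 lay between 17.7 and 6.41 CPM per kb, and each overlapped its neighbour in the order. Aff4 was lowest, at 3.49 ± 0.417 CPM per kb, below every library of Ccnt1. In MS-444, Gtf2b at 106 ± 16.1 and Tbp at 59.7 ± 18.4 CPM per kb were still the highest and apart from the rest. Cdk9 came next at 26.5 ± 8.94 CPM per kb, but its libraries overlapped those of Supt16 at 21.5 ± 5.53. Supt5, Hexim1 and Ccnt1 followed at 19.8, 15.1 and 12.9 CPM per kb, with overlapping libraries. Ccnt2, at 9.94 ± 1.05 CPM per kb, lay apart from Ccnt1 and level with Aff4 at 9.57 ± 2.32. Supt6 was lowest, at 6.97 ± 0.654 CPM per kb. The 3 genes that fell were thus the highest per kb in DMSO, while the 3 that rose lay between 3.49 and 9.71 CPM per kb. The DMSO level also enters the fold change, so this order and the direction of change are not independent.

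Likeness between genes was measured as the root mean square difference of log2 CPM, centred on each gene's mean, over the 6 libraries, among 117 other tested genes of the transcription machinery. The closest pairs were Supt5 with Hira, a histone chaperone gene, at 0.11, and Ccnt1 with Ell2, a super elongation complex gene, at 0.12. They were followed by Ccnt2 with Ssrp1 at 0.13, Tbp with Med23 at 0.15 and Supt6 with Aff1 at 0.15. Among the 10 genes themselves, Tbp was nearest to Supt16 at 0.23, Ccnt1 to Aff4 at 0.27 and Supt5 to Supt6 at 0.3. Ccnt2 and Gtf2b were nearest to Supt16, at 0.34 and 0.37. Cdk9 and Hexim1 were nearest to each other at 0.38, the largest of these distances. Outside the 10 genes, Cdk9 lay nearer to Med29 (0.28) and Hexim1 to Srsf1 (0.37). The farthest were Cdk9 and Supt16, at 1.52. These are descriptions over 6 libraries that share the treatment difference.

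The partners of these factors were read from 10 lists with 116 genes, of which 108 were tested. In total 16 rose and 8 fell in edgeR, 22.2% of those tested, beside 25.5% of all genes. Their median log2 fold change was 0.15. The most abundant gene of a list is named below by its mean CPM, without regard to transcript length. Scaled by library totals, 24 rose and 5 fell, and their median was 0.34.

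Of the 8 TBP paralogs and TFIIA genes, 1 rose and 1 fell. Dr1, the gene of the TBP-binding repressor NC2 beta, rose from 62.2 ± 24.7 to 160.1 ± 22.9 CPM (log2 fold change 1.37, edgeR adjusted p = 0.013). Tbpl2, the TBP paralog of oocytes, fell from 22.3 ± 13.3 to 6.5 ± 2.46 CPM (log2 fold change -1.74, edgeR adjusted p = 0.029). The ratio of Tbp to Tbpl2 counts, not corrected for length, was 6.4, 9.39 and 18.8 in DMSO and 39.9, 11.2 and 11.9 in MS-444. These ratios overlapped (log2 difference 0.75, exact permutation p = 0.4, adjusted 0.48). The ratio of Tbp to Gtf2b also overlapped, with a log2 difference of 0.31 (exact permutation p = 0.5, adjusted 0.5). Gtf2a1, the most abundant gene of the list, was at 334.2 ± 52.3 and 265.3 ± 31.8 CPM and did not pass (log2 fold change -0.33). The call of Dr1 was lost without MS-444 replicate 2 (1.31), and that of Tbpl2 without DMSO replicate 1 or any 1 MS-444 library (-1.97 to -1.23).

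Of 14 tested TFIID subunit genes none rose and 1 fell, with a median log2 fold change of -0.13. It was Taf9b, also the most abundant, which fell from 437.1 ± 92.1 to 191.7 ± 25.2 CPM (log2 fold change -1.19, edgeR adjusted p = 0.0092). Of 13 tested TFIIE, TFIIF and TFIIH genes 1 rose and none fell, with a median of 0.24. It was Gtf2h5, the gene of the small TFIIH subunit p8, at 12, 20.7 and 9.7 CPM in DMSO and 77.7, 100.4 and 92.7 CPM in MS-444. Its level was far higher in every MS-444 library (log2 fold change 2.66, SE 0.34, edgeR adjusted p = 0.0026). Gtf2f1, the most abundant of that list, was at 105 ± 46.7 and 162.3 ± 21.0 CPM and did not pass (log2 fold change 0.63), except without DMSO replicate 1. The calls of Taf9b and Gtf2h5 were kept under all 17 alternative settings.

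Of 30 tested Mediator genes, whose complex links activators to the polymerase, 4 rose and 2 fell, with a median log2 fold change of 0.16. Med18 fell from 19.8 ± 3.71 to 6.28 ± 1.05 CPM (log2 fold change -1.64, edgeR adjusted p = 0.01), and this call was kept under all 17 alternative settings. Med11 rose from 7.51 ± 3.23 to 29.7 ± 11 CPM (log2 fold change 1.99, edgeR adjusted p = 0.012) and Med29 from 64.0 ± 28 to 196.2 ± 57.9 CPM (log2 fold change 1.62, edgeR adjusted p = 0.014). The others that passed, named after their values were seen, were Med8 (2.12) and Med20 (1.34), which rose, and Med23 (-0.94), which fell. Med27, the most abundant, was at 779 ± 73.7 and 751.1 ± 178 CPM and did not pass (log2 fold change -0.05). Calls were lost for Med11 without MS-444 replicate 2 (1.64) and for Med29 without MS-444 replicate 2 or 3 (1.33 and 1.6). They were also lost for Med8 without DMSO replicate 3 or any 1 MS-444 library (1.72 to 2.16), for Med20 without any 1 library but DMSO replicate 3 (1.05 to 1.45), and for Med23 without 1 of DMSO replicate 3 and MS-444 replicates 2 and 3 (-0.91 to -0.81). Med20 further lost its call in limma with quantile normalization, and Med23 with library totals and with a filter of 1 CPM.

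Of the 10 genes for the 7SK particle and P-TEFb recruitment, 3 rose and none fell, with a median log2 fold change of 0.36. Ddx21, an RNA helicase that helps to release P-TEFb from 7SK, was at 54.0, 31.8 and 52.6 CPM in DMSO and 220.2, 95.3 and 88.8 CPM in MS-444. All 3 MS-444 libraries were higher, and replicate 1 stood above the other two (log2 fold change 1.55, edgeR adjusted p = 0.019). Ppm1g, the gene of a phosphatase that releases P-TEFb, rose from 32.1 ± 15.7 to 74.9 ± 4.98 CPM (log2 fold change 1.23, edgeR adjusted p = 0.03). Srsf1, the gene of a splicing factor found on the 7SK particle, rose from 115.6 ± 28.2 to 216.3 ± 21.2 CPM (log2 fold change 0.91, edgeR adjusted p = 0.028). The 7SK RNA itself (Rn7sk) had only 3, 10 and 27 counts in DMSO and 25, 12 and 16 in MS-444, and was not compared. The call of Ddx21 was lost without DMSO replicate 2 (1.28) or MS-444 replicate 1 (0.95), and those of Srsf1 (0.72 to 0.9) and Ppm1g (0.87 to 1.24) without any 1 library but DMSO replicate 1.

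Of the other super elongation complex genes 6 of 10 were tested, and 2 rose and 1 fell. Mllt3, the gene of the YEATS-domain reader AF9, fell from 979.6 ± 100.5 to 505.8 ± 33.7 CPM (log2 fold change -0.95, edgeR adjusted p = 0.011). It was the most abundant of the list and moved opposite to the scaffold gene Aff4. Ell2, an elongation factor gene, rose from 79.0 ± 12.6 to 135.5 ± 15.9 CPM (log2 fold change 0.78, edgeR adjusted p = 0.042). Eaf1, the gene of an ELL partner, rose from 10.8 ± 3.49 to 23.9 ± 4.57 CPM (log2 fold change 1.12, edgeR adjusted p = 0.041). Aff2, Ell3, Mllt1 and Eaf2 had too few counts to be tested, at 13 or fewer in a library. The call of Mllt3 was lost without MS-444 replicate 2 or 3 (-0.97 and -0.96) and in limma with quantile normalization, that of Ell2 without any 1 library but DMSO replicate 1 (0.63 to 0.81), and that of Eaf1 without any 1 library (0.83 to 1.22). Ell2 and Eaf1 also lost their calls in DESeq2 and with all genes of at least 1 count. Ell2 further lost its call with a filter of 1 CPM, and Eaf1 in limma with quantile normalization.

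Of the 5 genes for the DSIF partner and NELF, 3 rose and 1 fell, with a median log2 fold change of 1.49. Supt4a, the gene of the small DSIF subunit, was at 61.2, 97.8 and 29.3 CPM in DMSO and 160.1, 294.8 and 215.5 CPM in MS-444. It was higher in every MS-444 library (log2 fold change 1.83, SE 0.41, edgeR adjusted p = 0.012), where Supt5, its partner, did not pass. After correcting for GC and length it was 1.24 and still passed. The ratio of Supt5 to Supt4a was 0.961, 0.394 and 1.98 in DMSO and 0.413, 0.222 and 0.36 in MS-444, which overlapped (log2 difference -1.5, exact permutation p = 0.2, adjusted 0.3). Supt4a is uncertain, since the near-identical Supt4b copy held 9, 3 and 0 counts in DMSO and 0, 29 and 24 in MS-444. Nelfe rose from 13.1 ± 3.14 to 36.4 ± 4.96 CPM (log2 fold change 1.49, edgeR adjusted p = 0.0097) and Nelfb from 2.91 ± 0.774 to 8.77 ± 1.09 CPM (log2 fold change 1.6, edgeR adjusted p = 0.022). Nelfa, named after its value was seen, fell from 158.1 ± 38.1 to 84.7 ± 14.5 CPM (log2 fold change -0.9, edgeR adjusted p = 0.035), so that the NELF genes that passed did not share a direction. Calls were lost without MS-444 replicate 2 for Nelfe (1.31) and Supt4a (1.51), without any 1 library but DMSO replicate 1 for Nelfb (1.33 to 1.69), and without 1 of DMSO replicate 3 and MS-444 replicates 2 and 3 for Nelfa (-0.88 to -0.74). Nelfb also lost its call in limma with quantile normalization, and Nelfa with library totals.

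Of the 6 genes of the PAF complex, which travels with the elongating polymerase, none passed, and their median log2 fold change was 0.39. The most abundant, Ctr9, was at 59.0 ± 12.7 and 57.9 ± 10.8 CPM (log2 fold change -0.03). Of the 7 genes for the FACT partner, the SPT6 partner and chromatin elongation, 1 rose and 1 fell. Asf1b, a histone chaperone gene and the most abundant of the list, fell from 465.9 ± 42.6 to 243.2 ± 32.3 CPM (log2 fold change -0.94, edgeR adjusted p = 0.015). Chd1, a chromatin remodeller gene, rose from 119.9 ± 29.2 to 245.9 ± 116.4 CPM (log2 fold change 1.04, edgeR adjusted p = 0.049). Ssrp1, the FACT partner of Supt16, was at 147.1, 144.1 and 280.7 CPM in DMSO and 140.7, 111.1 and 122.8 CPM in MS-444. Its groups were apart only by a small gap, and it did not pass (log2 fold change -0.61, edgeR adjusted p = 0.16). The ratio of Supt16 to Ssrp1 was 1.47, 1.59 and 0.871 in DMSO and 0.925, 0.745 and 0.72 in MS-444, which overlapped (log2 difference -0.68, exact permutation p = 0.2, adjusted 0.3). The call of Asf1b was lost without MS-444 replicate 3 (-0.88) and that of Chd1 without any 1 library (0.53 to 1.2). Chd1 also lost its call with median-ratio size factors (edgeR adjusted p = 0.054) and with a filter of 1 CPM (edgeR adjusted p = 0.057). In limma it was lost with the trend fit (adjusted p = 0.055) and the voom fit (adjusted p = 0.053).

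Of 9 tested genes for CTD kinases, TFIIS and elongin, 1 rose and 1 fell, with a median log2 fold change of -0.2. Elob, the gene of elongin B, was at 16.0, 19.1 and 12.2 CPM in DMSO and 98.5, 97.7 and 108.2 CPM in MS-444. The groups were far apart (log2 fold change 2.68, SE 0.28, edgeR adjusted p = 0.002), and the call was kept under all 17 alternative settings, with 1.68 after correcting for GC and length. Ccnk, the gene of the cyclin K that partners the CTD kinases CDK12 and CDK13, fell from 71.8 ± 27.8 to 34.1 ± 7.35 CPM (log2 fold change -1.07, edgeR adjusted p = 0.038). The most abundant gene, Tcea1 (TFIIS), was at 587.3 ± 110 and 512.4 ± 51.5 CPM and did not pass (log2 fold change -0.2). The call of Ccnk was lost with library totals, and without DMSO replicate 3 or any 1 MS-444 library (-1.28 to -0.77).

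**Figure D5:**
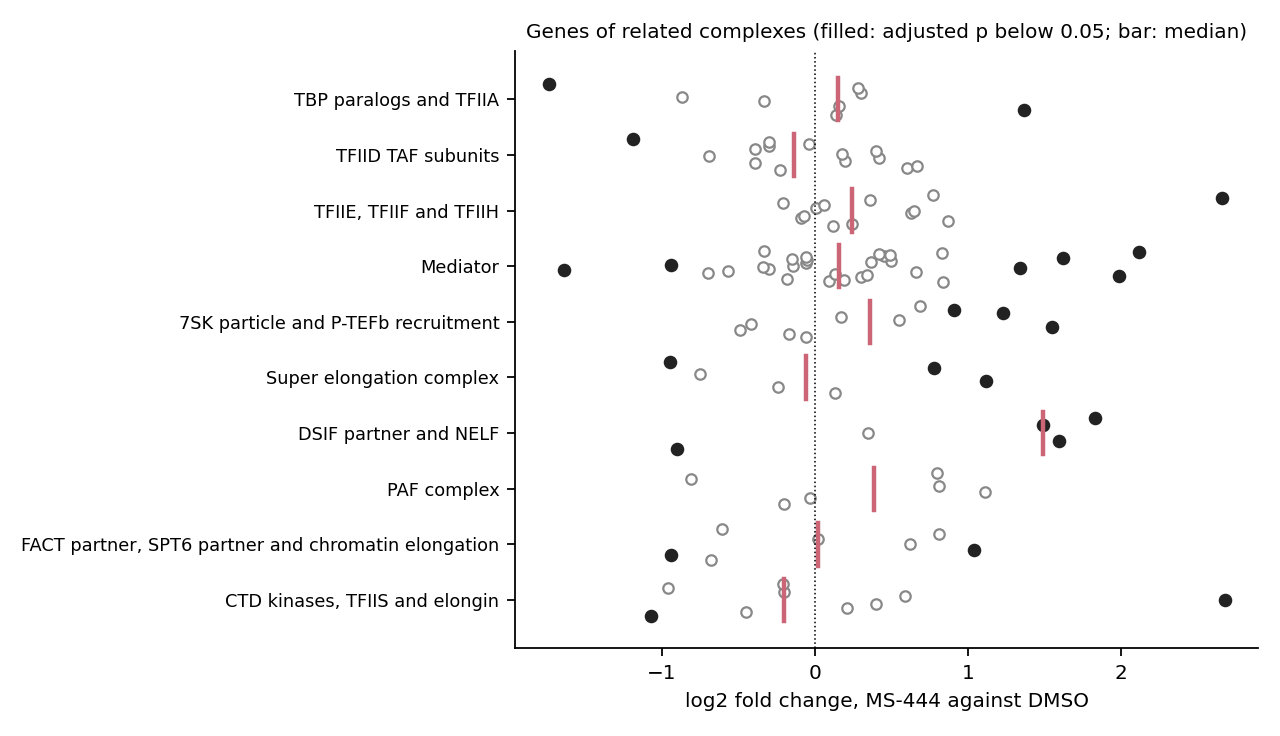
log2 fold change of MS-444 against DMSO for the 108 tested genes of the 10 partner lists. Each point is a gene, filled where the edgeR adjusted p is below 0.05, and red bars are list medians; the median is 1.49 for the DSIF partner and NELF and between -0.2 and 0.39 for the other lists.

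The list genes that rose had a median transcript length of 2276 bases, those that fell 2546 and those that did not pass 2819. Over all genes tested, with a median of 2923 bases, the medians were 2289 bases for those that rose and 2862.5 for those that fell. In the whole table the genes that rose were thus shorter, while those that fell lay near the median of all. Among the 10 factors the order of the medians was the other way, with 7397 bases for the 3 that rose and 1891 for the 3 that fell. The lengths overlapped, however. Those that rose had 1733 (Cdk9), 7397 (Ccnt1) and 10099 bases (Aff4), and those that fell 1455 (Gtf2b), 1891 (Tbp) and 4673 bases (Supt16). The part of transcript length in these results was not tested beyond a fit that corrected for length and GC content, in which Tbp, Gtf2b, Cdk9, Ccnt1, Aff4 and Supt16 all passed in the same direction.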

How the data were processed

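The deposited values are unnormalized read counts per gene, with 1 column for each library. The submitters' processing notes name HISAT2, Cufflinks 2.2.1 and the build mm9, without their roles. Which program and annotation gave the counts, and whether strand was used, was not given in the sources used here. Symbols, transcript lengths and 3′ UTRs came from GENCODE M21 (GRCm38), which matched 29075 of 29139 identifiers, and promoters from RefSeq (GRCm38.p6). The table itself holds no coordinates.

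From the counts, edgeR's expression filter was applied (minimum count 10), libraries were scaled by TMM (factors 0.9325 to 1.106) and genes were tested by edgeR's quasi-likelihood test (R 4.3.3, edgeR 4.0.16) with Benjamini-Hochberg adjustment at 0.05. Ratios used log2 of counts plus 0.5 and a two-sided exact permutation test (SciPy 1.17.1). Alternatives used limma 3.58.1, DESeq2 1.42.0, other scalings and filters, a replicate block, and each library left out in turn, 17 in all. PCR reads are not independent molecules. All pairs of libraries differed by more than sampling noise.

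The 10 genes and the lists were chosen with earlier results of these data known. All 10 are named. From each list, the most abundant gene and up to 3 of the genes that passed, those of smallest adjusted p, are named, with the partners in the ratios, the 5 closest pairs by likeness and Elavl1. The most abundant gene of 1 list is not reported here.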

Additional observations from a re-analysis of the deposited data

How the results depend on the processing

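Of the 3028 genes that passed, 1706 higher and 1322 lower, leaving out 1 library gave 1171 to 3820, with 659 to 2099 higher and 500 to 1721 lower. Of the 10 factors 6 passed, and leaving out 1 library gave 2 to 7, with 1 to 4 higher and 1 to 3 lower. Of the list genes 24 passed, and leaving out 1 library gave 6 to 29, with 3 to 18 higher and 2 to 11 lower. With library totals, 881 genes and 5 list genes were lower. Values that did not pass and changed sign were those of Supt6 with library totals (0.18), with the GC and length correction (0.04) and without MS-444 replicate 2 (0.01); of Med27 with library totals (0.13), quantile normalization (0.25) and with 1 library left out (-0.3 to 0.05, positive without MS-444 replicate 1); of Ctr9 with library totals (0.16), the GC and length correction (0.0) and with 1 library left out (-0.23 to 0.1, positive without DMSO replicate 3 or MS-444 replicate 2); and of Tcea1 with quantile normalization (0.07). The cause was not tested. With the replicate block, 3405 genes, 6 of the 10 factors and 32 list genes passed. Same-numbered libraries correlated in their deviations at 0.055, 0.371 and -0.1. Replicate 2 of each group correlated best with its own number, and replicates 1 and 3 did not. With 3 libraries a group these correlations depend on each other, so they cannot decide whether the numbers pair the samples. Every fold change of Gtf2b, Tbp, Cdk9, Ccnt1, Aff4 and Supt16 kept its direction in the 17 alternatives. Cdk9 had the lowest count of the 10 factors, 38 in a library.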
